A study of Arabidopsis thaliana with 12 samples.

Results

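Whole seedlings of Arabidopsis thaliana carrying the sdg8 mutation were compared with wild-type seedlings on 6 of the 12 arrays of the study, 3 per genotype, chosen by the genotype in the labels. Both groups are of the Columbia ecotype, were 6 days old and grew at 22 °C under 16 h of light and 8 h of dark, and neither received a treatment that the labels name. Only the gene name sdg8 is given for the mutant, and its allele is not given in the sources used here. The labels call the 3 arrays of a genotype biological replicates, and nothing in them ties an array of one genotype to an array of the other. The other 6 arrays are of hub2 and sdg8hub2 seedlings, of which the hub2 arrays serve below as a second mutant and those of sdg8hub2 are not used.

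SDG8 is an enzyme that methylates lysine 36 of histone H3, a mark laid down along the bodies of transcribed genes, and it is known for keeping the floral repressor FLC active and for roles in branching, carotenoid synthesis and defence. HUB2 is part of a different chromatin pathway, the attachment of ubiquitin to histone H2B, which also accompanies transcription. An RNA profile of the mutant shows which transcripts differ in amount and does not show where the mark lies.

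The deposited value of a probe set, the group of short probes that reads 1 transcript, is an intensity on a linear scale, and differences are given as log2 sdg8 minus log2 wild type. "Rose" and "fell" are used only for a difference with an adjusted p under 0.05 in limma, a linear model with moderated variances, after Benjamini-Hochberg adjustment over all 18196 probe sets tested. The wild-type arrays resembled each other more (pairwise correlation 0.966) than the sdg8 arrays did (0.940 to 0.952), and sdg8 replicate 1 correlated with the wild-type arrays (0.951 to 0.953) about as closely as with its own group (0.952). The median SD within a group was 0.199 in sdg8 and 0.167 in wild type on the log2 scale. Genes of green tissue and of root hairs were both read on every array, with LHCB4.1, a light-harvesting protein gene, at 16995, 18859 and 19361 in wild type and EXPA18, a root hair expansin gene, at 389, 410.4 and 397. The probe sets that read SDG8, HUB2 and FLC carry no name in the table used, so the loss of SDG8 transcript was not analysed here. In whole seedlings, fewer cells of a type and less RNA per cell cannot be told apart.

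Across the array, 2638 probe sets (14.5%) differed between sdg8 and wild type, 1198 higher (6.58%) and 1440 lower (7.91%) in the mutant. The split at this threshold depended on scaling, with 45.4% of the calls higher as deposited, 47.4% after quantile normalization and 57.5% after centring each array on its median. It was 33.9% without the variance trend, a change of the variance model that made 820 calls and in which 79 of 140 called genes followed here did not pass. Most differences were modest, with a median of 1.39-fold among those that rose and 1.58-fold among those that fell. At 1.5-fold or more, 390 were higher and 836 lower. At 2-fold or more, 101 were higher (0.555%) and 347 lower (1.91%), and at 4-fold or more 21 and 69. All 3 arrays of one genotype lay on the same side of all 3 of the other at 5739 probe sets (31.5%), including 2593 of the 2638 called.

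**Figure D1:**
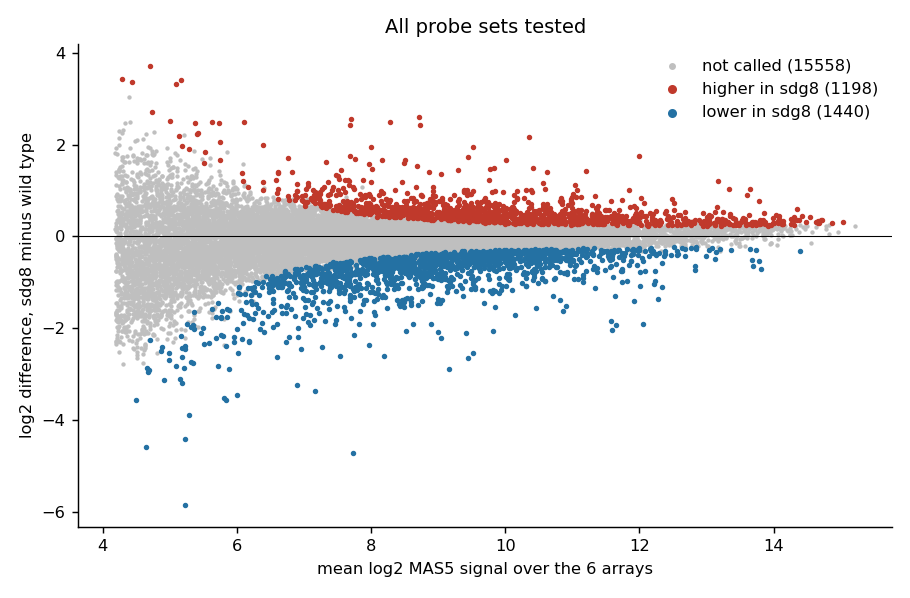
Log2 difference between sdg8 and wild type (y axis) against the mean log2 signal over the 6 arrays (x axis), 1 point per probe set tested. Red points are the 1198 that rose, blue points the 1440 that fell, and the points reach from -5.84 to 3.71 among named genes.

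As the plot of all probe sets shows, a larger share was called at stronger signal. When probe sets were sorted by mean signal into 4 equal bins, 0.506% rose and 1.91% fell in the weakest bin, and in the strongest bin 15.3% rose and 11.6% fell. The median log2 signal was 9.78 for probe sets that rose, 8.86 for those that fell and 7.91 for all tested. From the weakest to the strongest bin, the calls of 2-fold or more numbered 87, 142, 78 and 40 among those that fell and 23, 37, 21 and 20 among those that rose. After adding 64 to each intensity, which shrinks differences near the background, 43 rose and 151 fell by at least that much.

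The transcripts that rose most in sdg8 included genes induced when mitochondria fail and genes induced by lack of iron. AT2G21640, which encodes a mitochondrial protein induced by oxidative stress, read 149.5, 196 and 169 in wild type and 1024, 1086 and 1010 in sdg8. The groups were far apart, and the difference was 2.61 (SE 0.13, adjusted p = 1.7e-09). AT5G51440 encodes a small heat shock protein of mitochondria and read 105, 77.2 and 77.5 in wild type and 422, 521 and 576 in sdg8. AT5G09570, whose product has the paired cysteine motif of proteins imported between the mitochondrial membranes, read 146, 134 and 118 in wild type and 624, 822 and 788 in sdg8. The lowest mutant array exceeded the highest wild-type array for each of these genes, which the choice of genes required.

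AT2G41730, another gene of the same stimulon, was read evenly within each genotype, at 610.3, 621 and 627 in wild type and 2625, 3090.5 and 2671 in sdg8, although its probe set is of a type that can cross-hybridise. AT2G04050, a gene of the MATE family of exporters, went from 136, 176 and 128 to 403, 380.2 and 530.4. The list of the mitochondrial dysfunction stimulon held 23 genes, of which 9 were measured. The median of all named genes was -0.019, and 6.4% of them rose. Of the 9, 6 rose and 0 fell, with a median difference of 2.17. NDB4, an alternative NAD(P)H dehydrogenase gene of the inner membrane, was the sixth, with readings of 3.62, 4.48 and 23.4 in wild type, near the background, and 62.5, 90.5 and 150.3 in sdg8. Its difference was 1.12 after adding 64 to each intensity, and it did not pass without sdg8 replicate 3. Its relatives NDB2 (0.22) and NDB1 (-0.06) and the MATE gene AT2G04070 (0.35) did not pass.

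Of the 28 genes of the iron list, 4 had a named probe set that was tested, and all 4 rose. BHLH101, a transcription factor of the iron deficiency response, read 207, 149 and 201 in wild type and 890.5, 1158 and 949 in sdg8, a 5.41-fold rise (SE 0.15 on the log2 scale, adjusted p = 1.7e-08). AT1G47400, which encodes one of the short peptides that promote iron uptake, read 1562, 1228 and 1564 in wild type and 4033, 4051 and 3587 in sdg8. AT5G05250, a gene induced by iron deficiency, read 509, 731 and 532 in wild type and 1859, 1734 and 1952 in sdg8. The genotypes did not overlap at any of these 3 genes, as the choice of genes by size required. PYE, which encodes a bHLH factor that restrains part of the same response, read 393, 352 and 359 in wild type and 631, 781 and 625 in sdg8, a difference of 0.88 (SE 0.12). The iron genes kept their calls in all 17 alternative analyses, and the list's median was 1.58, 1.53 and 1.53 above the wild-type mean on the 3 sdg8 arrays.

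**Figure D2:**
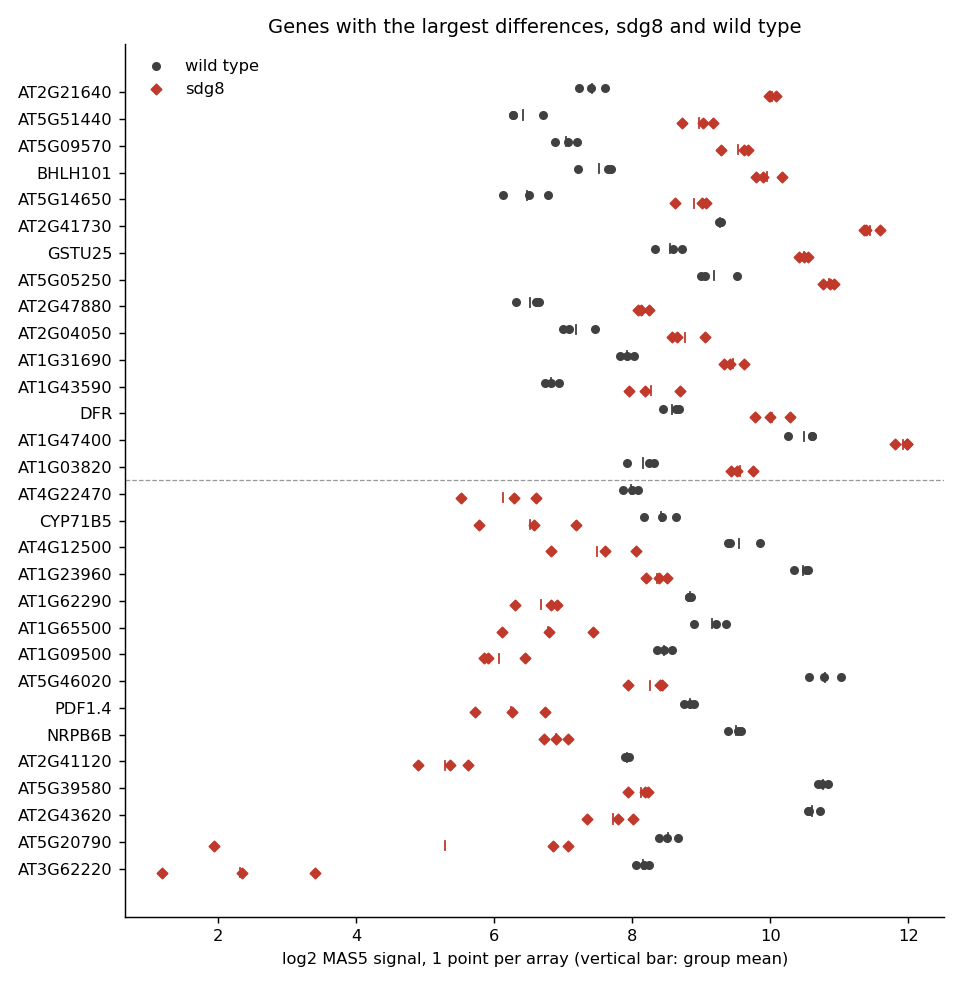
Log2 signal of the 15 highest and 15 lowest named genes, 1 symbol per array, with black circles for wild type, red diamonds for sdg8 and a vertical bar for each group mean. The genotypes do not overlap at any of these genes, which the choice required, and 1 sdg8 array lies far below the others at AT5G20790.

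Genes of anthocyanin synthesis also rose. DFR, which encodes the reductase at the entry to the anthocyanin branch, read 349, 396 and 408 in wild type and 879.8, 1019.7 and 1249 in sdg8. The difference was 1.44 (SE 0.13, adjusted p = 1.3e-06). The enzymes that decorate the pigment followed the same direction, with AT5MAT, a malonyltransferase gene, at 1.23, AT4G14090, the anthocyanin 5-O-glucosyltransferase gene, at 1.09 and UF3GT at 0.82. UGT78D2, which encodes a flavonoid 3-O-glucosyltransferase, stood at -0.34 and did not pass. So 4 of the 5 measured genes of a list of 20 rose and 0 fell, where 6.4% of all named genes rose. AT5MAT was weakly read, at 65.4, 72.6 and 52.4 in wild type and 156, 130.3 and 158 in sdg8, with no overlap.

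Further genes rose outside these lists. GSTU25, a tau-class glutathione transferase gene, read 321, 385 and 422 in wild type and 1434, 1366 and 1501 in sdg8. Of 13 glutathione transferase genes, 2 rose (GSTU22 by 0.81) and 2 fell (GSTU28 by 0.93 and GSTU16 by 0.53 on the log2 scale). Of all named genes 13.5% changed either way. AT2G47880, a glutaredoxin gene, rose 3.09-fold. AT1G31690, a copper amine oxidase gene, rose 2.89-fold on one probe set, and its other, more weakly read probe set gave a log2 difference of 1.99 (adjusted p = 0.00090). SWEET4, a sugar transporter gene, read 145, 92.8 and 125 in wild type and 326, 275 and 258 in sdg8. PDF2.1, a defensin gene, rose 1.97-fold, from 819.7, 797 and 866 to 1778, 1589 and 1536. AT5G14650, AT1G43590 and AT1G03820 rose by 2.43, 1.45 and 1.41.

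The transcripts that fell most included genes of secreted and defence-related proteins. AT2G43620, a chitinase family gene, read 1509.9, 1500.3 and 1684 in wild type and 258, 223 and 163 in sdg8. That is a 7.4-fold difference (SE 0.14 on the log2 scale, adjusted p = 1.7e-09) with a wide gap between genotypes. The class III peroxidases, secreted enzymes that act on the cell wall and in defence, gave AT5G39580 at 1658, 1725 and 1819.8 in wild type and 292, 301 and 246 in sdg8. A second peroxidase gene, AT5G64120, was read strongly and evenly, at 3290.4, 3309.8 and 3264 in wild type and 1020.5, 1102 and 1065 in sdg8. Both genes were lower on every mutant array, which the choice of genes required of AT5G39580. The peroxidase list, which does not hold AT5G39580, had 4 measured genes, of which AT5G64120 and PRX52 fell, while AT5G66390 (0.11) and AT2G41480 (-0.0014) did not pass. Of all named genes 7.08% fell. PRX52 was near the background in sdg8, at 43.2, 6.82 and 7.21, and lost its call when any 1 array other than sdg8 replicate 1 was left out. PDF1.4, a plant defensin gene, read 459, 432 and 478 in wild type and 107, 52.8 and 76.5 in sdg8. Of 9 defensin genes, 3 fell and 1 rose, where 13.5% of all named genes changed either way. The list's median of -0.088 was close to that of all named genes.

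AT4G12500, a gene of the proline-rich lipid transfer type, fell 4.16-fold, and AT1G62290, an aspartic protease gene, read 462, 451 and 453 in wild type and 119.8, 78.7 and 114 in sdg8. WRKY6 and WRKY47, transcription factor genes of a family linked to defence and senescence, fell by 0.97 and 0.74 on the log2 scale. The other 5 WRKY genes did not pass, and of all named genes 7.08% fell. PDF1.2b, a defensin gene driven by jasmonate and ethylene and read by a probe set that can cross-hybridise, read 434, 496 and 434 in wild type and 294, 286 and 267 in sdg8. PDF1.2 stood at -0.53 (adjusted p = 0.0996) and THI2.1 at -0.09, so 1 of the 3 measured genes of that defence list of 19 fell.

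Cytochrome P450 enzymes oxidise hormones and defence compounds. The list matched 23 P450 genes by name, and other P450 genes were not looked at. All 13 that were tested had lower means in sdg8, with a median difference of -0.80. Of these, 4 fell and 9 did not pass, against 7.08% of all named genes that fell. CYP71B5 read 288, 398 and 347 in wild type and 55.1, 146 and 95.5 in sdg8. CYP71B23 read 224, 177 and 169 in wild type and 46.5, 62.2 and 72.8 in sdg8. CYP71B34 and CYP71B26 stood at -0.84 and -0.81, and the call of CYP71B26 was lost without wild type replicate 1 or 3 or sdg8 replicate 1 or 3. The medians of the list relative to the wild-type mean were -0.77, -0.55 and -0.85 in the mutant and 0.02, 0.07 and 0.03 in wild type.

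The UDP-glycosyltransferases, which attach sugars to hormones and secondary compounds, moved in both directions. Of the 41 measured genes that the list matched by name, 7 were lower and 2 higher, with a median of -0.015. Of all named genes 7.08% fell and 6.4% rose. UGT88A1 read 2318, 2301 and 2436 in wild type and 1315, 1206 and 1176 in sdg8, a difference of -0.93 (SE 0.08). IAGLU, which encodes an enzyme that conjugates the auxin indole-3-acetic acid to glucose, read 627, 772 and 598 in wild type and 413, 369 and 291 in sdg8. UGT72E1, UGT74B1 and UGT87A2 fell by 0.55, 0.67 and 0.44 on the log2 scale, the last not without wild type replicate 1. UGT74B1 encodes the glucosyltransferase of the core glucosinolate pathway, the only measured gene of that list of 17. The genes of the list that rose were UF3GT, given above with the anthocyanin genes, and UGT85A4 (0.49). UGT85A4 lost its call when any of 5 arrays was left out, all but sdg8 replicate 2. The list does not hold AT4G14090, the anthocyanin glucosyltransferase gene given above, which rose by 1.09.

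**Figure D3:**
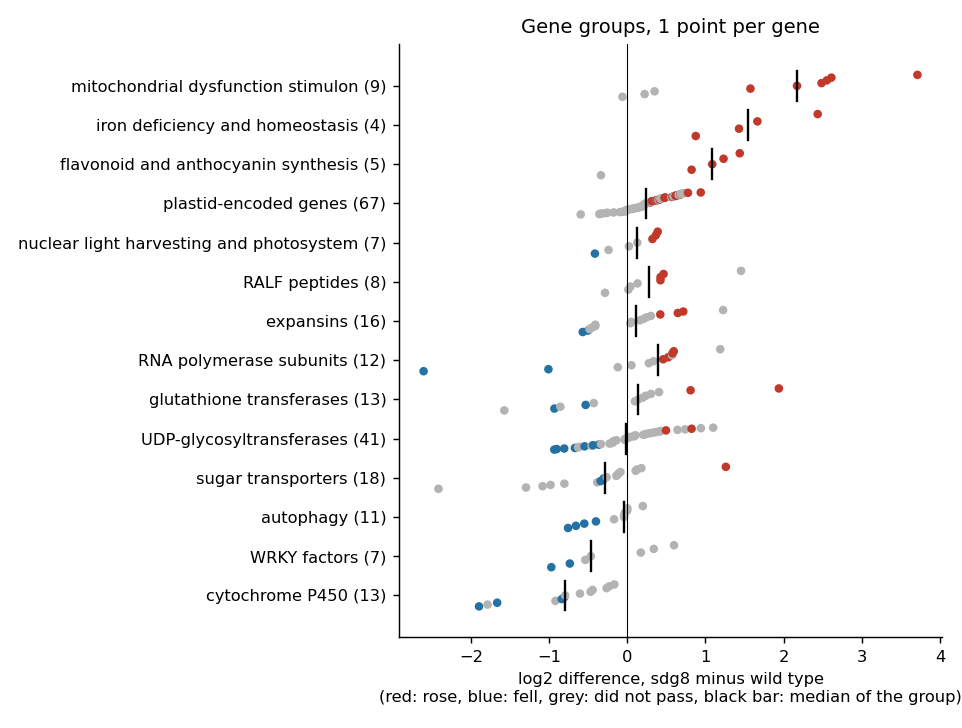
Log2 difference between sdg8 and wild type (x axis) for each measured gene of 14 groups (y axis, number of genes in brackets). Red points rose, blue points fell, grey points did not pass, and a black bar marks the median, which is 2.17 for the mitochondrial list and -0.80 for cytochrome P450.

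NRPB6B, which encodes one of a pair of closely related copies of a small subunit shared by the nuclear RNA polymerases, was among the lowest transcripts. It read 671, 762 and 741 in wild type and 134, 105 and 119 in sdg8, a 6.09-fold difference (adjusted p = 5.4e-09). The other copy, NRPB6A, stood at -0.12 (adjusted p = 0.525). NRPE7, a subunit gene of the plant-specific polymerase V, fell from 386, 382 and 409 to 212, 131 and 266. Other subunit genes went the opposite way: NRPB12 rose by 0.46, NRPA2 by 0.59, NRPB9B by 0.52 and NRPC2 by 0.58. In total 4 of 12 rose and 2 fell, where 6.4% of all named genes rose and 7.08% fell. NRPA2 did not pass without wild type replicate 3 or sdg8 replicate 3, NRPB9B when any array other than sdg8 replicate 2 was left out, and NRPC2 without wild type replicate 1 or 3 or sdg8 replicate 1 or 3.

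The largest log2 difference of a named gene, that of AT3G62220, rests on readings near the background in the mutant. It read 288, 266 and 302 in wild type and 5.07, 2.29 and 10.6 in sdg8, which is -5.84 on the log2 scale and -2.32 after adding 64 to each intensity. AT5G20790 read 335, 365 and 406 in wild type and 116, 3.84 and 134 in sdg8, so 1 mutant array set most of its difference of -3.23. Its call was lost without wild type replicate 1 or 3, in the robust fit, with no filter and without the variance trend. AT5G46020, which was among the more strongly read genes of this set, fell from 2094, 1759 and 1508 to 347, 338 and 244. AT1G23960 went from 1305, 1492 and 1473 to 335, 294 and 363. AT2G41120, AT1G09500, AT1G65500 and AT4G22470 stood at -2.63, -2.40, -2.37 and -1.85, each with no overlap between genotypes, as the choice required.

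Photosynthetic transcripts are made from both the plastid and the nuclear genome. Of 67 plastid-encoded genes tested, 15 rose and 0 fell, with 53 positive differences and a median of 0.24. Of all named genes 6.4% rose, and of all probe sets in the strongest signal bin 15.3% did. No plastid gene reached 2-fold. petA, which encodes cytochrome f, read 1454, 1253 and 1461 in wild type and 2158, 2438 and 2539.7 in sdg8, the best resolved of them (0.78, SE 0.09, adjusted p = 2.9e-05). psaI, a photosystem I subunit gene, read 987, 1402 and 1279.5 in wild type and 1939.9, 2013 and 1747 in sdg8. rps4, a ribosomal protein gene, read 1974, 2461 and 2713 in wild type and 3637, 3825 and 3143 in sdg8. rbcL, the gene of the large subunit of Rubisco, rose by 0.48, though not without wild type replicate 1 or sdg8 replicate 2.

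By function, 3 of 5 photosystem I genes, 3 of 6 ATP synthase genes, 2 of 6 cytochrome b6f genes and 3 of 14 ribosomal protein genes rose. Of all plastid genes tested 22.4% rose, and of all named genes 6.4%. None of the 15 photosystem II genes and none of the 9 NAD(P)H dehydrogenase genes passed in limma, with medians of 0.21 and 0.22, close to the plastid median. On single arrays the list's median relative to the wild-type mean was 0.17, 0.27 and 0.33 in sdg8 and -0.09, 0.21 and -0.12 in wild type, so that wild type replicate 2 lay above sdg8 replicate 1. Of the 15 calls, petA alone held in all 17 alternatives, and 9 were lost when some single array was left out.

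**Figure D4:**
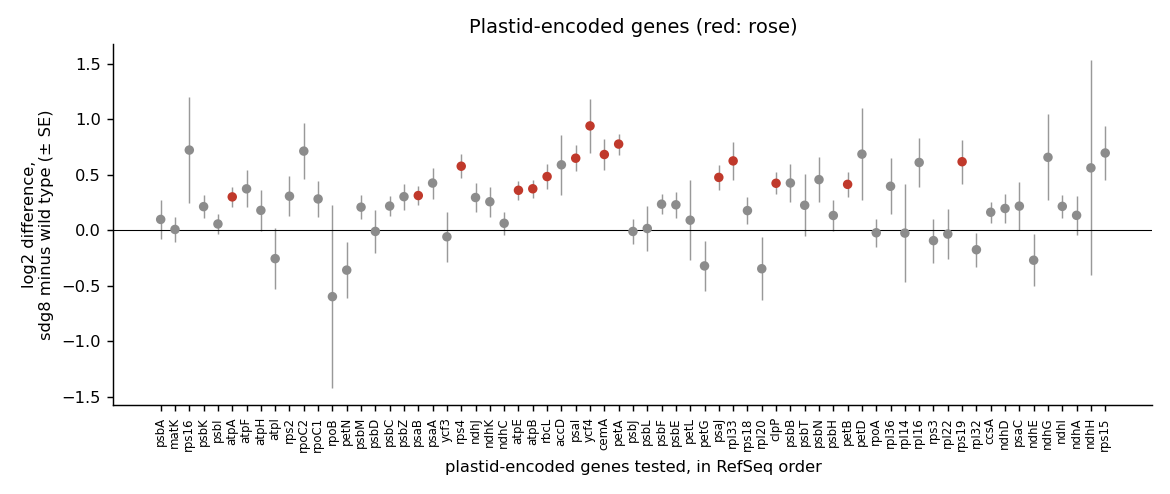
Log2 difference between sdg8 and wild type with its standard error (y axis) for the 67 plastid-encoded genes in the order of the RefSeq gene table (x axis). Red points are the 15 that rose, among them the 4 neighbours psaI, ycf4, cemA and petA at 0.65, 0.94, 0.68 and 0.78.

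Nuclear genes of photosynthesis showed smaller and mixed differences. LHCB4.1 and LHCB4.2 encode isoforms of one minor antenna protein of photosystem II and differed in direction. LHCB4.1 read 16995, 18859 and 19361 in wild type and 22602, 25817 and 22678 in sdg8, and LHCB4.2 read 2938, 3042 and 3426 in wild type and 2424, 2550 and 2092 in sdg8. The first rose by 0.36, which was lost under quantile normalization, and the second fell by 0.41 on the log2 scale, which was lost with median centring. PSAE-1 and PSBY rose by 0.39 and 0.32, so 3 of 7 rose and 1 fell, where 13.5% of all named genes changed either way. PSBY did not pass without wild type replicate 1 or sdg8 replicate 2, with no filter or under quantile normalization. In chlorophyll synthesis, PORB, a light-dependent protochlorophyllide oxidoreductase gene, read 3089.7, 2927 and 3437 in wild type and 1713, 1573 and 1744 in sdg8. CHLI2, a magnesium chelatase subunit gene, rose by 0.36, though not without wild type replicate 1, and CHLM, GSA1 and HEMA2 (-0.15, -0.12 and 0.16) did not pass.

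Genes of growth and the cell wall changed in both directions. Expansins loosen walls, and of 16 measured genes 3 rose and 2 fell, where 13.5% of all named genes changed either way. EXPA4 read 1199, 1317 and 1032 in wild type and 1781, 1794 and 2258 in sdg8, and EXPA15 rose by 0.65. EXPA16 and EXPA18 fell by 0.50 and 0.57 on the log2 scale, but neither passed without wild type replicate 1 or 3 or sdg8 replicate 3, nor EXPA18 without wild type replicate 2. XTH18, a xyloglucan-remodelling enzyme gene, fell from 462, 457 and 396 to 236, 277 and 187, and 7 of the 9 genes of that family did not pass. XTH26 also fell, with a difference of -0.93 after adding 64, from a mutant mean near the background, and its call was lost when any wild-type array was left out.

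Of 6 genes of the list of CLE and other signalling peptides, 2 rose and 4 did not pass, with a median of 0.061. Of all named genes 6.4% rose. STOMAGEN, which encodes a peptide that promotes stomata, read 2466, 2488 and 2407 in wild type and 3272, 3972 and 3732 in sdg8. RALFL34, one of the RALF peptides that signal through cell wall receptor kinases, rose by 0.43, and 3 of 8 RALF genes rose and 0 fell, where 6.4% of all named genes rose. The other gene of the CLE list that rose, CLE41, stood at 0.39 and did not pass without wild type replicate 1 or 2 or sdg8 replicate 1 or 2. The calls of RALFL27 (0.46) and RALFL31 (0.42) were lost without sdg8 replicate 1 or wild type replicate 1, that of RALFL27 also without sdg8 replicate 2 or wild type replicate 3, and that of RALFL31 also without wild type replicate 2. LTI30, a dehydrin gene of the cold and drought response, read 1102, 1060.5 and 987 in wild type and 1487, 1781 and 1884 in sdg8.

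Autophagy genes of the ATG8 family, whose products coat the membranes that enclose cell contents for degradation, made up the 4 of 11 autophagy genes that fell, where 7.08% of all named genes fell. None of the 11 rose, and the median was -0.042. ATG8D read 780.1, 914 and 927 in wild type and 593, 562 and 505 in sdg8, and ATG8B read 553, 602 and 574 in wild type and 406, 356 and 273 in sdg8. APG8A and ATG8G stood at -0.40 and -0.55, and their calls were lost when any 1 array other than sdg8 replicate 1 was left out, and with median centring. GRXC2, a glutaredoxin gene, fell from 5070.3, 4552 and 4801 to 2379, 2443 and 2483. The other 8 genes that the glutaredoxin and thioredoxin list matched by name did not pass. That list does not hold AT2G47880, the glutaredoxin gene given above, which rose 3.09-fold. AT3G21670, a gene of the nitrate and peptide transporter family, read 596, 791 and 599 in wild type and 344, 305 and 297 in sdg8. The other 10 measured genes that the list matched by name did not pass. Genes of that family that carry no family name in the annotation are not in the list, so it does not describe the whole family. Among histone genes, the linker histone gene HIS1-3 fell from 389, 384 and 461 to 265, 244 and 194, HON4, another gene of linker histone type, stood at -0.37 (lost with median centring and without wild type replicate 1 or 3 or sdg8 replicate 2), and the other 5 did not pass.

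Some regulatory families held no call. No gene passed among 10 of the auxin response families, 6 calmodulin and calcium-binding genes and 3 genes of gibberellin synthesis and response in limma, and those groups had medians of -0.21, -0.10 and -0.31. Of 17 MADS-box genes, AGL87 rose by 0.51. AGL24, the one measured flowering time regulator of a list of 15, stood at 0.03 with overlapping groups. Of 18 sugar transporter genes, 1 rose, SWEET4 given above, and 3 fell, where 13.5% of all named genes changed. SWEET11, TMT1 and SWEET1 stood at -0.31, -0.30 and -0.34, and those calls were lost with median centring. TMT1 and SWEET1 also did not pass when any 1 wild-type array was left out, nor TMT1 without sdg8 replicate 3, nor SWEET1 without sdg8 replicate 1 or 2.

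Changed genes were found on all 5 nuclear chromosomes and in the plastid genome. No mitochondrion-encoded gene had a named probe set, so that genome was not analysed here. Among named genes, 5.45% to 6.94% rose and 6.18% to 8.78% fell on the 5 nuclear chromosomes, where the whole named set gave 6.4% and 7.08%. On the plastid, 22.4% were higher, and 15.3% of all probe sets in the strongest signal bin rose. Of the plastid genes that rose, all but ycf4 and rps19 had a mean signal in that bin. Whether signal strength accounts for the plastid share was not tested. Of 3922 pairs of tested coding genes that lie next to each other, both genes changed the same way in 50 pairs and opposite ways in 28. In 25 of the 50 both were higher and in 25 both were lower, and the higher pairs include plastid neighbours. Whether these counts exceed what the shares of all named genes would give was not tested. In 3 runs, at least 3 genes with no coding gene between them were called in the same direction. The longest was the plastid run psaI, ycf4, cemA and petA, which all rose, and the second plastid run held atpE, atpB and rbcL. In the nucleus, AT1G22540, AT1G22550 and AT1G22570 fell by 0.66, 0.67 and 0.63 on the log2 scale, the first not without wild type replicate 1. In the plastid run, ycf4 had overlapping genotypes and did not pass without wild type replicate 3 or sdg8 replicate 2 or 3, and in the second run atpE did not pass without wild type replicate 1. The likeness of sequence between neighbours was not analysed here, so shared probes were not tested.

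The hub2 seedlings, of the same age and growth conditions, give a second chromatin mutant against which to read these differences. Both mutants were set against the same 3 wild-type arrays, so the values stand side by side, and the test is of sdg8 minus hub2 in a fit of the 9 arrays. There 2838 probe sets differed (15.6%), 1274 higher in sdg8 (7.0%) and 1564 lower (8.6%).

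The iron genes differed between the mutants. BHLH101 read 131, 104 and 137 in hub2, AT1G47400 read 927, 949 and 849 and AT5G05250 read 431, 405 and 295, all below the wild-type arrays. Against wild type, hub2 stood at -0.58, -0.67 and -0.65, of which the last pair passed (adjusted p = 0.00123 and 0.0263). The sdg8 minus hub2 difference was 3.01, 2.1 and 2.31 (adjusted p = 1.9e-09, 4.4e-10 and 7.4e-09), and that of PYE was 1.23. DFR read 322, 295 and 305 in hub2 and was higher in sdg8 by 1.76.

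Genes of the mitochondrial list also separated. AT2G21640 read 191, 243 and 208 in hub2 and AT5G09570 read 136, 106 and 81.8, and sdg8 was higher by 2.29 and 2.81. AT5G51440 was higher than wild type in hub2 as well, at 128, 236 and 179.6 (1.04, adjusted p = 0.0139), and sdg8 exceeded hub2 by 1.51. AT2G41730 was also higher in hub2 than in wild type, at 811, 1059.9 and 843 (0.54, adjusted p = 0.0121), and sdg8 exceeded hub2 by 1.63. For NDB4 the difference between the mutants, 1.34, did not pass (adjusted p = 0.252).

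**Figure D5:**
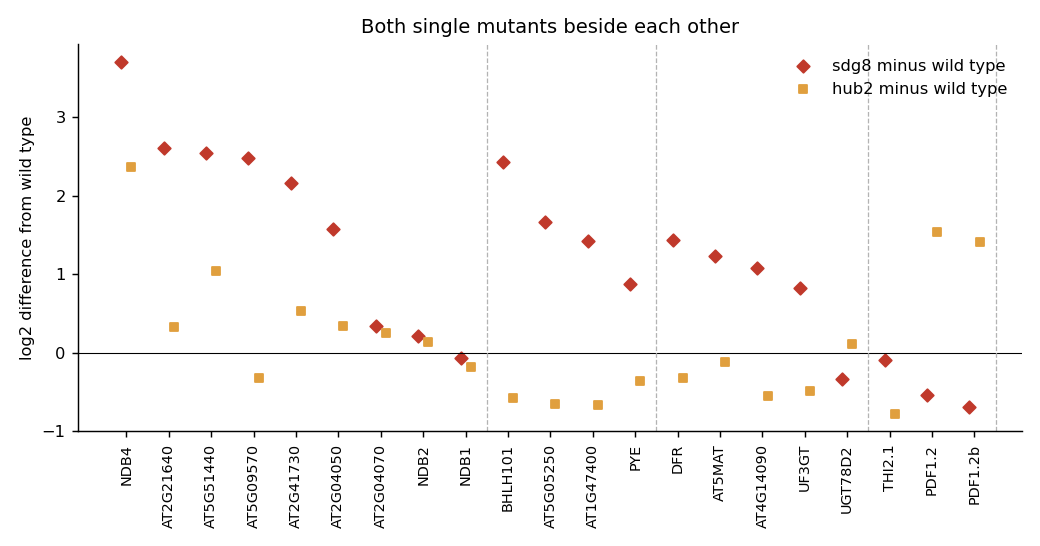
Log2 difference from wild type (y axis) for the measured genes of 4 lists (x axis, dashed lines between lists) in sdg8 (red diamonds) and hub2 (orange squares), both against the same 3 wild-type arrays. The 4 iron genes lie above 0 in sdg8 and below 0 in hub2, and PDF1.2 and PDF1.2b lie below 0 in sdg8 and above 0 in hub2.

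PDF1.2b, LHCB4.2 and PORB had opposite differences in the mutants. PDF1.2b read 1352, 1142 and 1146 in hub2, above all wild-type arrays, while it was lower in sdg8, and sdg8 minus hub2 was -2.1 (adjusted p = 1.9e-09). LHCB4.2 read 5844, 5227 and 5511 in hub2 and PORB read 4539, 4892 and 4597, against lower readings than wild type in sdg8, and sdg8 minus hub2 was -1.23 and -1.48. Several genes given above differed from wild type in the same direction in both mutants. In hub2, AT2G43620 stood at -0.97 and AT4G12500 at -1.26 (adjusted p = 0.0011 and 0.0039 in limma). GSTU25, PDF2.1 and NRPB12 stood at 0.77, 0.66 and 0.41 in hub2 (adjusted p = 0.00094, 0.0008 and 0.02). Of these, only NRPB12 did not differ between the mutants in the test (0.05). Both of the strongly read peroxidase genes also fell in hub2 against wild type. AT5G39580 read 629, 685 and 755 and AT5G64120 read 1893, 1646 and 1900.2 in hub2, between the wild-type and the sdg8 arrays, and sdg8 minus hub2 was -1.30 and -0.77. NRPB6B and PDF1.4 in hub2, at 678, 882 and 601 and 550.3, 537 and 474, stood near wild type (-0.03 and 0.19), and both were lower in sdg8 than in hub2 (-2.58 and -2.78).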

How the data were processed

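Per the submitters' processing notes, the authors made the deposited intensity values with MAS5 and the affy package; their versions are not recorded there. The mean intensity after trimming 2% at each end was 500 on every array. Depth has no meaning for arrays, and their number limits the precision. Values were raised to a floor of 1.22, which no tested value met, and taken as log2. Of 22810 probe sets, 64 controls and those with a mean below the 20th percentile of the 6 arrays (18.3) were left out. Group means were fitted in limma 3.58.1 (R 4.3.3) with a variance trend; summaries used Python 3.11.15. A mean below 18.3 is called near the background.

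Names come from the platform annotation (13513 probe sets with 1 symbol, 503 with several, 8794 with none), updated through RefSeq genes of TAIR10.1, where 13436 matched. Genes were named as the 15 largest differences each way (called, 1 symbol, higher mean above the median log2 signal of 7.91, no overlap) plus members of 68 gene lists, 18 of them with no tested gene. Within lists and genome counts each gene was represented by its brightest probe set; 4 list entries that matched by name only were removed. Beyond 4 members per list, and for NDB4, genes were chosen after their values were seen. Genes and lists were chosen with earlier results of these data known, so their counts are descriptions. A list gene is called measured only where a tested probe set carried its name alone, so other entries of a list were not analysed. The fit was tested on simulated data, where it recovered 13.2% of log2 differences of 0.5, 53.0% of 1 and 69.7% of 2. Far fewer probe sets were changed there, and 93 of 18196 were called, against 2638 in the data. The adjusted p cut-off was therefore stricter in the simulation, and these shares do not measure recovery in the comparison itself. A gene that did not pass can still differ. Promoter sequences and scan or extraction batches were not analysed here.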

Additional observations from a re-analysis of the deposited data

How the results depend on the processing

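The comparison was repeated under 17 alternatives, 6 of which left out 1 array. Without the variance trend limma called 820 probe sets, 278 higher and 542 lower (81 and 246 at 2-fold or more), and 1564 between sdg8 and hub2. A filter at the 50th percentile left 65 higher and 182 lower at 2-fold or more, and adding 64 to each intensity left 43 and 151; the filter tested fewer probe sets and the added value shrinks folds by construction. Leaving out 1 array gave 1706 to 2488 calls, 766 to 1048 higher and 940 to 1440 lower, 89 to 111 higher and 273 to 405 lower at 2-fold, and 2092 to 2584 between sdg8 and hub2. The lowest counts, 1706, 766 and 940, came without wild type replicate 1. The other alternatives gave 2260 (no filter) to 2841 calls (64 added), and median centring gave 1446 higher and 1070 lower. With the replicate number as a block (replicate block) 2520 were called, and same-numbered arrays did not deviate together (correlations 0.022, 0.0024 and -0.037), so the numbers were not taken as pairs. Of the 30 genes named by size, 28 kept their call in every alternative that tested them; AT5G20790 and CYP71B5, the latter without the variance trend, did not. Of 140 called genes followed, 59 kept the call throughout, 21 lost it only without the trend, and 56 lost it when some array was left out, but none was called in the opposite direction. Of 34 list medians, 12 changed sign in some alternative. Detection calls were not used, so differences at low signal are limited by the background.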
